A study of Mus musculus with 16 samples.

Results

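The genes described here encode the signalling machinery downstream of the high-affinity IgE receptor, Fc-epsilon-RI, on mast cells. They were chosen by name, as 39 of the 27670 genes with a probe on the array, and all 39 were present: 5 tyrosine kinases, 9 adaptors, 6 phospholipases and exchange factors, 3 PI3K subunits, 7 inhibitors, 3 protein kinases C and 6 genes of calcium entry and NFAT. The array named 2 of them by an older symbol, Tmem142a for Orai1 and Prkcb1 for Prkcb. They had 74 probes, of which 69 were kept, and 38 genes were tested. A probe was kept where, in any group, 3 or more of the 4 arrays read it well above background in Cy3 or in Cy5. The ubiquitin ligase gene Cblb was not tested, because neither of its probes met that limit.

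The cells were mouse mast cells grown from bone marrow for more than 4 weeks with IL-3 (5 ng/ml), SCF (40 ng/ml) and 10% serum. The culture purity was stated as above 90%, and the cells were described as immature. In every group the same cells received, on one side, an agonist goat antibody against mouse TIM-3 and, on the other, control goat IgG, each at 15 ug/ml. TIM-3 is encoded by Havcr2 and is a surface receptor found on several kinds of immune cell. Resting cells received no IgE and no antigen. Activated cells were loaded with anti-DNP IgE (5 ug/ml) for 1 h and then given the antigen DNP-HSA (100 ng/ml) together with the antibody or the IgG. RNA was taken after 2 h or 16 h, which gave 4 groups: resting 2 h, activated 2 h, resting 16 h and activated 16 h, with 4 arrays each. On each of the 16 arrays Cy5 labelled the anti-TIM-3 sample and Cy3 the IgG sample. The labels name no separate cultures or animals behind the replicates. The p-values therefore cover the spread between these samples alone, and that spread may be technical.

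Background helps to read the gene groups. When antigen cross-links IgE on its receptor, the Src-family kinases Lyn and Fyn phosphorylate the receptor and its partners, and Syk is recruited. Syk phosphorylates the adaptor LAT, which gathers further adaptors, phospholipase C-gamma, Vav1 and exchange factors for Ras. Phospholipase C-gamma then releases calcium from stores and activates protein kinase C, STIM1 opens the ORAI1 channel, and calcineurin sends NFAT to the nucleus. Lipid and tyrosine phosphatases, Cbl proteins and Dok adaptors restrain the pathway. Mast cells use it to release granules, lipid mediators and cytokines.

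The share of spots read well above background ranged from 53.7% to 62.1% in the Cy3 channel and from 54.8% to 67.7% in the Cy5 channel. The median Cy3 signal of an array was 61.2 to 78.8 intensity units, over a background of 29.5 to 34.5. Fold changes of dim genes are therefore understated by the constant of 50 added before taking log2. The 9 mast cell markers on the array were well above background in all 4 groups. The defining genes Prg2 and Epx of eosinophils, C1qa of macrophages and Cd3g, Ms4a1 and Cd79a of lymphocytes were in no group. Across the marker lists, 4 to 5 of 6 macrophage genes, 1 of 4 neutrophil genes on the array, 3 of 3 basophil genes, 3 of 6 lymphocyte genes, 2 of 3 dendritic cell genes and 1 to 2 of 3 erythroid genes were above background. The summed lymphocyte list was at 9.62 to 9.7 (log2 Cy3 level) in activated 2 h cells and at 8.6 to 8.97 in the other groups. The summed dendritic cell list was at 10.22 to 10.75 in activated 16 h cells and at 8.75 to 9.56 in the others. Nkg7 carried the first of these, at 8.92 in activated 2 h cells and 6.68 to 7.37 elsewhere, and Itgax the second, at 10.33 in activated 16 h cells and 8.65 to 8.98 elsewhere. Flt3 stayed at 6.64 to 6.92, and Siglech was above background in no group. The part of these cell types in the results was not tested. In bulk RNA, fewer cells of a type and less RNA per cell cannot be told apart.

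The promoter windows of 6 genes are shown first, those with the largest changes after 2 h of antigen on the probes used. They are Fyn, Tec and Orai1, which rose, and Clnk, Pik3cg and Prkcq, which fell. Each is the 250 bases before the start of the gene, 5′ to 3′ on the gene's own strand, from RefSeq on GRCm38.p6. Of the 39 genes, 32 had an entry. The windows lie at chr10:39369549-39369798 (plus strand) for Fyn, chr5:72868449-72868698 (minus) for Tec, chr5:123014824-123015073 (plus) for Orai1, chr5:38876694-38876943 (minus) for Clnk, chr12:32208660-32208909 (minus) for Pik3cg and chr2:11172132-11172381 (plus) for Prkcq. Pik3cg has 2 listed starts, of which the first was used. Capitals mark matches, on either strand, to 4 short motifs: the NFAT core GGAAA, the AP-1 site TGANTCA, the GATA core GATAA and the CRE core TGACG.
Fyn: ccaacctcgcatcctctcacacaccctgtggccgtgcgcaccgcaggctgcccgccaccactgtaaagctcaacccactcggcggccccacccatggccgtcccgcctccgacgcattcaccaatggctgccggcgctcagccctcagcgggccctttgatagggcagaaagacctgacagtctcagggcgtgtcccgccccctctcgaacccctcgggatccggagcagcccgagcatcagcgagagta
Tec: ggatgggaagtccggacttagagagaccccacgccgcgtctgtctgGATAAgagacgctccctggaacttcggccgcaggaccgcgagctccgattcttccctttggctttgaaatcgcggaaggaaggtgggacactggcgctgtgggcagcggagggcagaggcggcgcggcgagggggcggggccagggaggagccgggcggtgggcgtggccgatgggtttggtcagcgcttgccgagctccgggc
Orai1: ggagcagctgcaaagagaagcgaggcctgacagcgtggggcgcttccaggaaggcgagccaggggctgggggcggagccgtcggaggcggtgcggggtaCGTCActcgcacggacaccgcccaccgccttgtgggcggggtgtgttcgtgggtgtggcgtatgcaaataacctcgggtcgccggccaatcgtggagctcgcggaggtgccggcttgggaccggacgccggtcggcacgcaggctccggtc
Clnk: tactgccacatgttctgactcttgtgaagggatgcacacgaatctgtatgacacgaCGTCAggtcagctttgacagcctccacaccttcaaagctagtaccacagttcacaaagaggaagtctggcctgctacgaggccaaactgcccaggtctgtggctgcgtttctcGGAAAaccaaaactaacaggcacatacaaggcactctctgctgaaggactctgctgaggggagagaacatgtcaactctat
Pik3cg: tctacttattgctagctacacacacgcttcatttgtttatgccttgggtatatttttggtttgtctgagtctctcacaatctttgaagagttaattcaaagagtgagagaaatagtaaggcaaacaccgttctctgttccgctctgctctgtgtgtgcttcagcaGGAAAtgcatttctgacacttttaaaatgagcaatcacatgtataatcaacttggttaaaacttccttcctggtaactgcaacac
Prkcq: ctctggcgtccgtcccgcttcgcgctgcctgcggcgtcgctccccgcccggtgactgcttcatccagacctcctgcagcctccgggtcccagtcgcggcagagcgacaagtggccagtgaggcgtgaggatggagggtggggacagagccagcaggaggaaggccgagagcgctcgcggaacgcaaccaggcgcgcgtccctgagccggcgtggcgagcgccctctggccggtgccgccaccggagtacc

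The windows differ in composition and in the motifs they hold. GC content was 67.2% in Fyn, 68.4% in Tec, 70.8% in Orai1 and 72.4% in Prkcq, against 50.4% in Clnk and 38.8% in Pik3cg. The NFAT core was found 1 time in Clnk, starting at base -81 from the gene start, and 1 time in Pik3cg, at base -85. It occurs in 55.6% of 32851 RefSeq promoter windows of this length, so a match is common. The GATA core was found 1 time in Tec, at base -204, and occurs in 22.6% of windows. The CRE core was found 1 time in Orai1, at base -151, and 1 time in Clnk, at base -194, and occurs in 17.8%. The AP-1 site was in none of the 6 windows and occurs in 6.75%. Fyn and Prkcq held none of the 4 motifs. These matches describe the letters of the windows and are not measured binding sites.

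The first question was what IgE and antigen did to the pathway's own genes without anti-TIM-3, from the Cy3 levels. The normalization of those levels used both dyes, so the Cy5 signals entered their scaling. After 2 h of antigen, more of these genes went down than up. Among 38 tested genes, 5 rose and 17 fell, which is 57.9% of them, against 42.9% of the 17101 genes tested (15.3% higher and 27.6% lower). A gene passed at an adjusted p under 0.05 (limma, Benjamini-Hochberg over all genes). Fyn, Orai1 and Tec rose most, and Clnk, Pik3cg and Prkcq fell most. The median change of the 38 genes was -0.13 on the log2 scale, and that of all genes was -0.04. By role, the 3 PI3K subunits all fell, 4 of 6 phospholipases and exchange factors fell, 3 of 9 adaptors fell and 2 of 3 protein kinases C fell, with none higher in those 4 groups on the probes used. The kinases were split, with 2 of 5 higher and 2 lower, as were the 6 tested inhibitors, with 2 higher and 2 lower. Of the 6 calcium and NFAT genes, 1 rose and 1 fell. All of these values compare groups on different arrays within 1 dye, so dye bias enters both sides. Genes whose arrays are said below to lie apart were picked by this same test, so the gap adds no support. The share of all genes without overlap was not counted.

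Among the kinases, Fyn, a Src-family kinase whose signal reaches PI3K through Gab2, had log2 Cy3 levels of 8.5, 8.26, 8.64 and 8.34 in resting cells and 9.67, 9.76, 9.83 and 9.72 in activated cells at 2 h. Every activated array lay above every resting array. The rise was 1.31 ± 0.07 (SE, n = 4 against 4, limma adjusted p = 5.57e-10), and it was 1.22 and 1.14 within the 2 slides that held both groups. Tec, a kinase that acts on phospholipase C-gamma, read 11.41, 11.26, 11.13 and 11.19 in resting cells and 12.01, 12.21, 11.9 and 11.85 in activated cells. These groups did not overlap either, and the rise was 0.75 ± 0.08 (limma adjusted p = 8.68e-07), with 0.74 from a second Tec probe. Syk, the central kinase of the pathway, fell by 0.40 ± 0.10 (limma adjusted p = 0.0033). Its levels were 10.68, 10.55, 10.49 and 10.67 in resting cells and 10.33, 9.95, 10.05 and 10.44 in activated cells, without overlap. Btk, a relative of Tec, fell by 0.24, a call that was lost without resting 2 h replicate 2 (adjusted p = 0.0602), activated 2 h replicate 2 (0.0534) or activated 2 h replicate 3 (0.0516). Lyn, the kinase that acts first on the receptor, had a value of 0.08 and did not pass.

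Of the 38 genes on the probes used, the largest change with antigen at 2 h was in an adaptor. Clnk, the SLP-76 relative also called MIST, had levels of 12.99, 12.7, 12.99 and 12.48 in resting cells at 2 h and 11.03, 11.04, 10.84 and 11.09 in activated cells. The groups lay more than 1 log2 unit apart. It fell by 1.79 ± 0.09 (limma adjusted p = 2.98e-10), by 1.96 and 2.03 within the 2 shared slides, and by 0.91 on its second probe (limma adjusted p = 4.13e-06). Lat, the membrane scaffold of the pathway, fell by 0.22 (limma adjusted p = 0.0057), although Agilent's processed signals gave -0.05 (adjusted p = 0.633). Shc1, which links receptors to Grb2 and Ras, fell by 0.25. The other 6 adaptors, Lat2, Lcp2, Grap2, Gab2, Sh2b2 and Grb2, did not pass on the probe used, although 2 other probes of Grap2 rose and 1 other probe each of Grb2 and Lat2 fell.

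Among the phospholipases and exchange factors, Vav1, an exchange factor for Rac, read 12.88, 12.84, 12.95 and 12.94 in resting cells and 12.18, 12.15, 12.21 and 12.26 in activated cells at 2 h. Each group was tight and they stood well apart. Vav1 fell by 0.70 ± 0.06 (limma adjusted p = 3.56e-08), and its second probe fell by 0.57. Rasgrp4, a mast-cell exchange factor for Ras, fell by 0.35 (adjusted p = 0.00038, limma), but its second probe gave -0.02 (adjusted p = 0.849). Plcg2, the phospholipase that cuts PIP2 into calcium and protein kinase C signals, fell by 0.33 with 3 resting arrays, because the scanner software marked 1 spot as an outlier. Its relative Plcg1 fell by 0.25, and lost the call without resting 2 h replicate 1 (adjusted p = 0.0685) or activated 2 h replicate 1 (0.0698). Rasgrp1 and Sos1 did not pass.

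All 3 PI3K genes were lower. Pik3cg, the catalytic subunit p110-gamma that amplifies degranulation, read 11.25, 11.12, 11.08 and 11.14 in resting cells and 10.03, 10.09, 10.09 and 9.91 in activated cells at 2 h. There was no overlap, and the fall was by 1.12 ± 0.05 (limma adjusted p = 1.32e-10). Pik3cd, the subunit p110-delta, fell by 0.30 (adjusted p = 0.001, limma). Pik3r1, the regulatory subunit p85-alpha, fell by 0.24, and lost the call without resting 2 h replicate 2 (adjusted p = 0.0638), resting 2 h replicate 3 (0.0541) or activated 2 h replicate 2 (0.0722).

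The inhibitors moved in both directions. Inpp5d, the lipid phosphatase SHIP-1 that removes the product of PI3K, read 14.61, 14.57, 14.79 and 14.57 in resting cells and 13.94, 13.81, 13.95 and 13.87 in activated cells at 2 h. It fell without overlap by 0.74 ± 0.06 (limma adjusted p = 1.76e-08). Dok1, an adaptor that recruits a Ras GTPase-activating protein, fell by 0.35 (limma adjusted p = 7.9e-05). Ptpn6, the tyrosine phosphatase SHP-1, rose by 0.38 (limma adjusted p = 1.45e-05), from 13.02, 12.99, 13.03 and 12.92 to 13.29, 13.33, 13.39 and 13.45. Its other 2 probes also rose, by 0.28 and 0.16. Dok2, the close relative of Dok1, rose by 0.24 (limma adjusted p = 0.00971). Ptpn11 and Cbl did not pass.

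Of the protein kinases C, Prkcq, the theta isoform, read 8.63, 8.88, 8.63 and 8.63 in resting cells and 7.66, 7.97, 7.64 and 7.72 in activated cells at 2 h. The groups were apart, and Prkcq fell by 0.94 ± 0.10 (limma adjusted p = 1.63e-06) and by 0.66 on its second probe. Prkcd, the delta isoform, fell by 0.40 (limma adjusted p = 1.7e-05), and Prkcb had a value of -0.21 that did not pass (adjusted p = 0.132, limma), but passed with the replicate number as a block (adjusted p = 0.0247). Orai1, the pore of the store-operated calcium channel, moved the other way. Its levels were 10.12, 10.27, 10.12 and 10.27 in resting cells and 11.16, 11.27, 11.26 and 11.24 in activated cells, a rise of 1.04 ± 0.05 (limma adjusted p = 3.01e-10), with 1.10 and 1.13 within the shared slides. Stim1, the calcium sensor that opens ORAI1, had a value of 0.07 and did not pass. Nfatc2, an NFAT transcription factor, was dim, with 6.94, 7.22, 7.17 and 7.03 in resting cells against 6.58, 6.59, 6.52 and 6.5 in activated cells. It fell by 0.54 ± 0.06 (limma adjusted p = 3.24e-06).

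**Figure D1:**
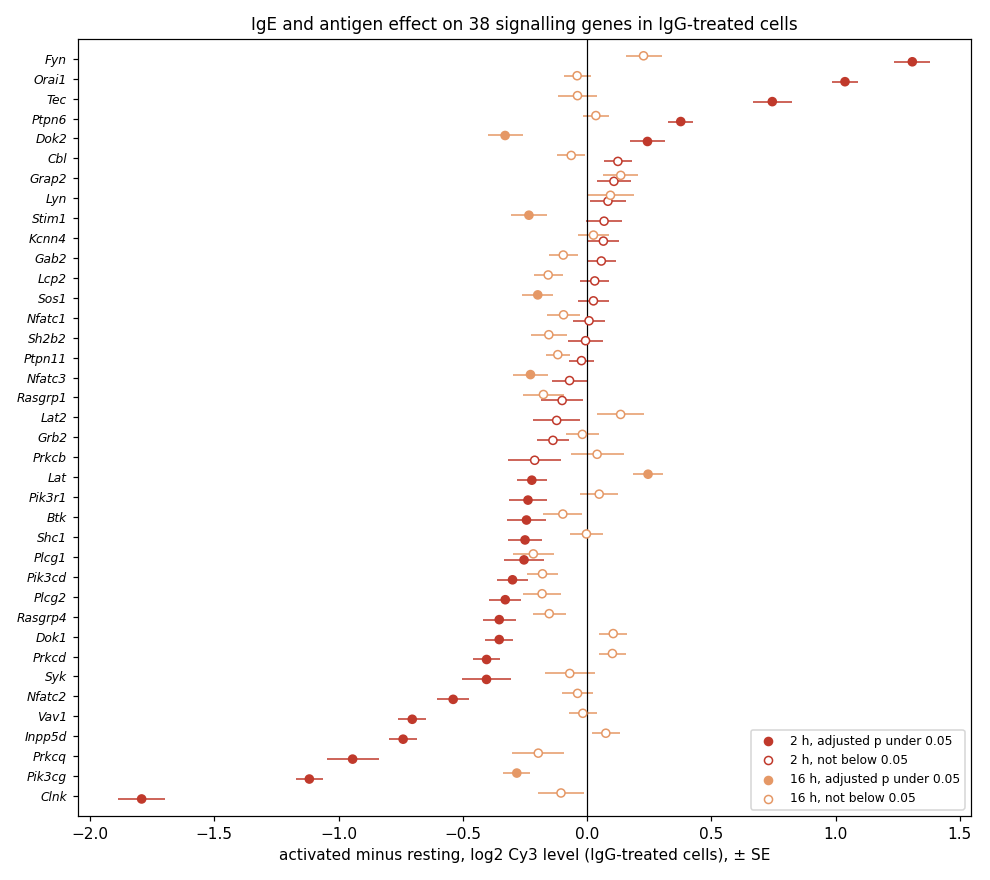
Horizontal axis: activated minus resting log2 Cy3 level in IgG-treated cells with its standard error, for 38 genes at 2 h (red) and 16 h (orange), 4 arrays a group; filled points passed the limma test. At 2 h the values run from -1.79 for Clnk to 1.31 for Fyn, and at 16 h from -0.33 for Dok2 to 0.25 for Lat.

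**Figure D2:**
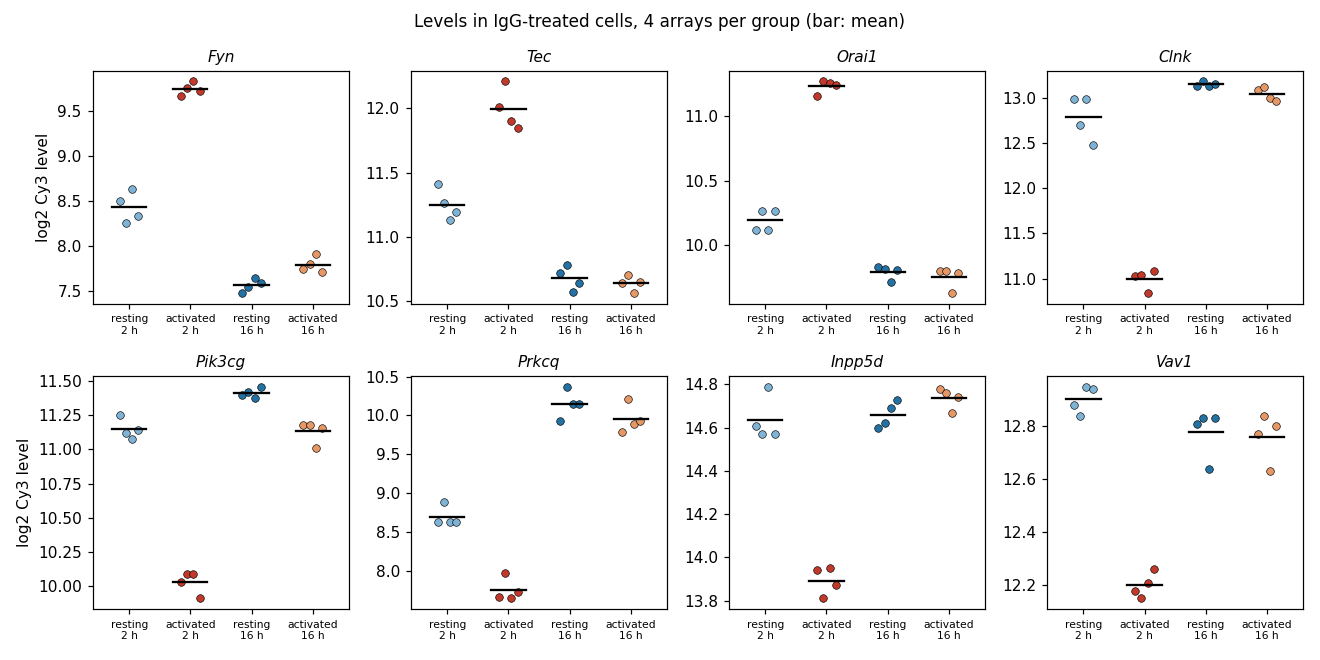
Vertical axes: log2 Cy3 level of 8 genes in IgG-treated cells, each with its own scale; each point is an array and each bar the mean of the 4 arrays of a group. At 2 h the resting and activated arrays of all 8 genes lie apart, and at 16 h those of Fyn, Clnk and Pik3cg lie apart by a smaller distance. The 8 genes were picked among those that passed the 2 h test, so the gap at 2 h adds no support. The share of all genes without overlap was not counted.

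Nfatc1, which encodes a NFAT factor with several transcripts, depended on the probe. The brighter probe, designed on transcript NM_198429, was used in the counts. It read 10.4, 10.63, 10.36 and 10.64 in resting cells and 10.4, 10.61, 10.53 and 10.52 in activated cells at 2 h, a difference of 0.01 (limma adjusted p = 0.942). The dimmer probe, designed on NM_016791, read 8.35, 8.47, 8.05 and 8.36 in resting cells and 9.9, 10.58, 10.4 and 10.26 in activated cells. On that probe Nfatc1 rose 3.93-fold, by 1.97 ± 0.11 on the log2 scale (limma adjusted p = 7.84e-10), and at 16 h it was back at 7.43 to 7.56 in activated cells, against 7.58 to 7.73 in resting cells. Between 2 h and 16 h in activated cells it fell by 2.80 (limma adjusted p = 2.92e-12). The array does not say which transcripts each probe can bind beyond these identifiers. The dimmer probe was singled out after its values were seen.

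**Figure D3:**
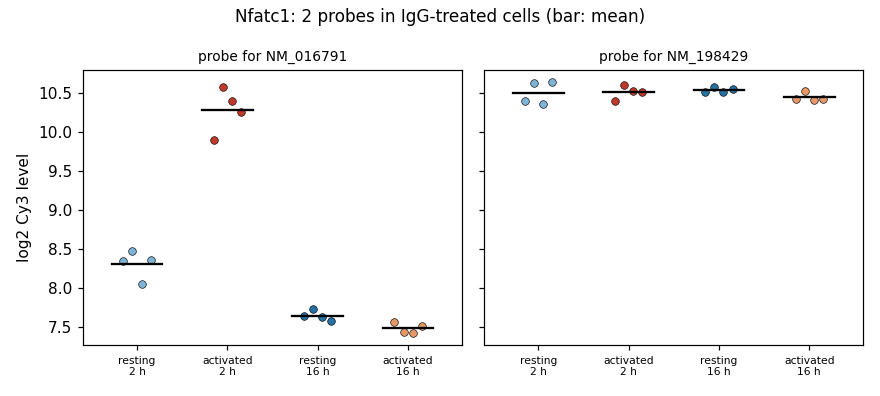
Vertical axis: log2 Cy3 level of 2 Nfatc1 probes in IgG-treated cells of the 4 groups; each point is an array and each bar a group mean. The probe for NM_016791 is at 9.9 to 10.58 in activated 2 h cells and below 8.5 elsewhere, and the probe for NM_198429 stays between 10.36 and 10.64 in all 4 groups.

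The 2 h pattern in IgG-treated cells was also seen in the Cy5 channel, in cells that had anti-TIM-3 as well. Those cells are on the same arrays, so their values are given side by side and not as a second test. The activated minus resting difference in Cy5 was 1.59 for Fyn, 1.41 for Orai1, 1 for Tec, -1.65 for Clnk, -1.06 for Pik3cg, -0.72 for Prkcq, -0.84 for Inpp5d and -0.65 for Vav1.

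After 16 h of antigen fewer of these genes passed in the Cy3 channel. Of 38 genes, 1 rose and 5 fell, which is 15.8%, against 12.3% of all genes tested (5.23% higher and 7.02% lower). With the replicate number as a block, 10 genes passed, 2 higher and 8 lower, against 17% of all genes. The 4 genes gained were Fyn (0.23, adjusted p = 0.0133), Prkcq (-0.20, adjusted p = 0.01), Rasgrp1 (-0.18, adjusted p = 0.0435) and Pik3cd (-0.18, adjusted p = 0.0426), all by limma. Agilent's processed signals gave 2 higher and 2 lower, quantile normalization 1 and 2, and an offset of 10 gave 2 and 3. Over all genes called at 16 h, 42.7% were higher, and 59.4% with Agilent's processed signals. The median was -0.07, against 0 for all genes. Lat read 13.55, 13.44, 13.58 and 13.56 in resting cells and 13.74, 13.86, 13.66 and 13.85 in activated cells, and rose by 0.25 ± 0.06 (limma adjusted p = 0.0114). Pik3cg was still lower with antigen, at 11.18, 11.18, 11.01 and 11.16 against 11.4, 11.42, 11.38 and 11.46, and fell by 0.28 ± 0.05 (limma adjusted p = 0.0024). Dok2 read 12.79, 12.75, 12.92 and 12.91 in activated cells against 13.16, 13.1, 13.27 and 13.17, and fell by 0.33 ± 0.07 (limma adjusted p = 0.00494). Lat, Pik3cg and Dok2 passed at both times without the block (7.89%, against 8.08% of all genes tested), and Lat and Dok2 had the opposite sign at 2 h. Stim1, Nfatc3 and Sos1 fell by 0.20 to 0.23, but each lost its call without at least 6 of the 8 arrays taken 1 at a time (limma adjusted p from 0.0504 to 0.133). Of the genes with a change over 1 at 2 h, Clnk was at -0.11, Orai1 at -0.04 and Fyn at 0.23 at 16 h (limma adjusted p = 0.0519 without the block).

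The second question was how the same cells differed between 2 h and 16 h, with IgG alone or with antigen. In resting cells 14 genes rose and 8 fell, which is 57.9%, against 46.9% of all genes tested (24% higher and 22.9% lower). In activated cells 17 rose and 12 fell, which is 76.3%, against 60% (33.8% higher and 26.2% lower). The medians were 0.03 in resting and 0.12 in activated cells, against -0.01 and 0.03 for all genes. There were 13 genes higher at 16 h under both conditions (34.2%, against 19.8% of all genes tested) and 7 lower (18.4%, against 16.3%). None rose in one and fell in the other, against 2.4% of all genes. The later arrays also differ in culture time, which cannot be told apart from time after treatment. In activated cells a single slide held both times, so for the other arrays slide differs along with time. The comparison in activated cells shares its 2 h arrays with the antigen comparison above, so the values are not independent.

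Prkcq rose most in both conditions, by 1.46 ± 0.10 in resting cells (limma adjusted p = 9.7e-09) and 2.21 ± 0.10 in activated cells (limma adjusted p = 2.2e-11). Its 16 h levels were 9.93, 10.37, 10.15 and 10.15 in resting and 9.79, 10.21, 9.89 and 9.93 in activated cells, far above its 2 h levels. Among the Ras exchange factors, Rasgrp1 rose from 7.5, 7.56, 7.37 and 7.32 to 8.25, 8.52, 8.32 and 8.22 in resting cells, and its change was 0.89 in resting and 0.81 in activated cells. Rasgrp4 rose from 11.18, 11.22, 11.37 and 11.11 to 11.79, 11.83, 11.84 and 11.69 in resting cells, with changes of 0.57 and 0.77. Sos1, the exchange factor carried by Grb2, went the other way, from 8.33, 8.39, 8.18 and 8.38 to 7.92, 7.97, 7.87 and 7.85, with changes of -0.42 and -0.64. In none of these 4 genes did the 2 times overlap, but they were named because they passed the test of this difference.

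Of the kinases, Btk rose from 12.65, 12.9, 12.73 and 12.84 to 13.27, 13.5, 13.4 and 13.34 in resting cells (0.60 in resting and 0.74 in activated cells). Syk rose by 0.63 in activated cells, where the 16 h arrays read 10.87, 10.87, 10.72 and 10.83. Its rise of 0.30 in resting cells was lost without resting 2 h replicate 2 (adjusted p = 0.0507), resting 2 h replicate 3 (0.0636) or resting 16 h replicate 1 (0.0831). Fyn and Tec fell with time. Fyn was at 7.48, 7.55, 7.65 and 7.59 in resting and 7.75, 7.8, 7.91 and 7.72 in activated cells at 16 h, so it fell by 0.87 in resting cells and fell by 1.95 in activated cells. Tec was at 10.72, 10.78, 10.57 and 10.64 in resting and 10.64, 10.7, 10.56 and 10.65 in activated cells, so it fell by 0.57 and fell by 1.35.

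Of the adaptors, Lat fell by 1.02 in resting cells, from 14.6, 14.49, 14.64 and 14.45 to the 16 h levels given above, and by 0.55 in activated cells. Clnk was at 13.13, 13.18, 13.13 and 13.15 in resting and 13.09, 13.12, 13 and 12.96 in activated cells at 16 h. Its rise was 2.05 with antigen and 0.36 at rest, but the mean of both probes gave 0.19 in resting cells (adjusted p = 0.137). Grb2, the small adaptor that carries Sos1, rose by 0.37 and 0.49, and Grap2, its relative Gads, fell by 0.28 and 0.25.

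The phospholipase and PI3K genes were higher at 16 h under both conditions. Plcg2 rose by 0.45 in resting cells, from 13.23, 13.23 and 13.4 to 13.77, 13.66 and 13.79, and by 0.60 in activated cells, where 2 arrays gave a 16 h value, 13.53 and 13.59. Pik3cd rose from 14.13, 14.12, 14.01 and 13.87 to 14.58, 14.56, 14.51 and 14.46 in resting cells (0.50, and 0.62 in activated cells). Pik3r1 rose by 0.52 in activated cells, from 9.12, 8.95, 9.22 and 9.15 to 9.68, 9.61, 9.66 and 9.6. Its rise in resting cells, 0.24, was lost without resting 2 h replicate 1 (adjusted p = 0.0528) or resting 16 h replicate 1 (0.0531). Pik3cg rose by 0.27 in resting and 1.10 in activated cells. Plcg1 was a gene on which probes disagreed. The probe used rose from 12.21, 12.09, 11.94 and 11.9 to 12.75, 12.73, 12.56 and 12.5 in resting cells (0.60, and 0.64 in activated cells), a second rose by 0.45 and 0.30, and the other fell by 0.70 and 0.77.

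Some genes differed between the times in activated cells and did not pass in resting cells on the probe used. Inpp5d rose by 0.84 in activated cells to 14.78, 14.76, 14.67 and 14.74, Vav1 rose by 0.56 to 12.77, 12.84, 12.63 and 12.8, Prkcd rose by 0.50 to 13.19, 13.29, 13.22 and 13.27, and Nfatc2 rose by 0.48 to 6.93, 7.18, 7.05 and 6.98. These 4 are genes that fell with antigen at 2 h, and their 16 h levels in resting cells were 14.66, 12.78, 13.14 and 7.07 on average. Whether the time effect differed between conditions was not tested for them. On its second probe Vav1 passed as lower at 16 h in resting cells, so its resting result depended on the probe. Of the calcium genes, Stim1 rose from 11.57, 11.58, 11.29 and 11.47 to 12.1, 12.07, 11.99 and 11.95 in resting cells (0.55, and 0.25 in activated cells). Orai1 fell by 0.40 to 9.83, 9.82, 9.72 and 9.81 in resting cells and by 1.48 to 9.8, 9.8, 9.63 and 9.79 in activated cells. Kcnn4, the calcium-activated potassium channel KCa3.1 that sustains calcium entry, fell from 13.5, 13.46, 13.47 and 13.42 to 12.5, 12.68, 12.51 and 12.57 in resting cells, and its changes were -0.90 and -0.94. Cbl, a ubiquitin ligase, was not well above background on any 16 h array in Cy3. In activated cells it read 1.24-fold lower at 16 h (limma adjusted p = 0.000135), with measured means of 6.52 at 2 h and 6.21 at 16 h. That fold is an estimate from a 16 h level not well above background.

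The third question was what anti-TIM-3 did on top, from the ratio of Cy5 to Cy3 on each array. Dyes were not swapped, so within 1 group dye bias of a probe cannot be told apart from the antibody. Differences in ratio between groups cancel a bias that is equal on all arrays. Zero on this scale is also a choice. Loess normalization places the median gene at 0 to 0.01, and centring each array on its median in its place moves the median gene to 0.21, 0.22, 0.30 and 0.39 in resting 2 h, activated 2 h, resting 16 h and activated 16 h cells. With that centring 96.7%, 92.8%, 92.3% and 88.9% of all genes called in these 4 groups were higher. Small falls are then not below 0.

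In activated cells at 2 h the ratios of these genes spread to both sides. Of 38 genes, 9 were higher with anti-TIM-3 and 9 lower, which is 47.4%, against 33.3% of all genes tested (17.1% higher and 16.3% lower). The median was -0.05, against 0. With median centring 30 passed, all of them higher, and with Agilent's processed signals 14 passed, 5 higher and 9 lower. The share of higher genes among all genes called was 51.2%, and 38.4% with Agilent's processed signals. Of the 18 calls, 9 were kept whichever single array was left out: Dok2, Fyn, Lat, Lcp2, Orai1 and Tec, which were higher, and Grb2, Kcnn4 and Syk, which were lower. The 9 calls lost without at least 1 array were those of Grap2, Clnk, Sh2b2, Rasgrp4, Sos1, Pik3r1, Inpp5d, Ptpn11 and Prkcd, with log2 ratios between -0.29 and 0.26. Rasgrp4 was among them, at -0.10, with the highest adjusted p of 0.204 without activated 2 h replicate 1. Sos1 reached 0.26 without the same array, Clnk 0.133 and Pik3r1 0.0796 without replicate 4, Inpp5d 0.238 and Ptpn11 0.158 without replicate 3, and Grap2 0.129 without replicate 2. Sh2b2 reached 0.0891 without replicate 4 and Prkcd 0.0526 without replicate 2. With median centring the lower calls of Grap2, Clnk, Rasgrp4, Inpp5d and Prkcd became 0.17, 0.20, 0.28, 0.51 and 0.22.

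The kinases Fyn and Tec, which rose with antigen at 2 h, were also higher with anti-TIM-3 in activated cells at that time. Their ratios on the 4 arrays were 0.28, 0.32, 0.22 and 0.36 for Fyn (mean 0.30, limma adjusted p = 0.000192). For Tec they were 0.4, 0.31, 0.39 and 0.34 (mean 0.36, limma adjusted p = 6.16e-05), with 0.24 from the second probe. All 8 values were above 0. Syk was lower, at -0.23, -0.32, -0.25 and -0.45 (mean -0.31, limma adjusted p = 0.000204), although median centring placed it at 0.02.

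Among the adaptors, Lcp2, which encodes SLP-76, the adaptor that holds Vav1 and phospholipase C-gamma near LAT, was higher at 0.62, 0.34, 0.31 and 0.66 (mean 0.48, limma adjusted p = 0.000141). Lat had a mean ratio of 0.21 (limma adjusted p = 0.0035), but 0.09 with Agilent's processed signals (adjusted p = 0.248). Grb2 was lower, at -0.45, -0.31, -0.26 and -0.39 (mean -0.35, limma adjusted p = 8.18e-06), and at 0.27 with median centring. Lat2, the adaptor NTAL, passed on its dimmer probe (-0.25, adjusted p = 0.00197) and not on the probe used.

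Of the calcium genes, Orai1 was higher at 0.31, 0.23, 0.35 and 0.17 (mean 0.27, limma adjusted p = 0.000282). Kcnn4 was lower at -0.55, -0.73, -0.55 and -0.86 (mean -0.67, limma adjusted p = 1.2e-06), the lowest ratio of the 38 genes, and at -0.10 with median centring. The dimmer Nfatc1 probe had ratios of 0.87, 0.35, 0.31 and 0.71 (mean 0.56, limma adjusted p = 0.00127), and the brighter one 0.06. Of the inhibitors, Dok2 was higher at 0.17, 0.38, 0.35 and 0.21 (mean 0.28, limma adjusted p = 0.00297). Ptpn6 did not pass on the probe used, while its other 2 probes passed in opposite directions (0.18 and -0.24).

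In activated cells at 16 h, 1 gene was higher and 7 were lower with anti-TIM-3, which is 21.1%, against 30.1% of all genes tested (16.9% higher and 13.2% lower). The median was -0.02, against 0.01. Median centring gave 34 higher and 1 lower. Dok2, which brings a Ras GTPase-activating protein to activated receptors, stood out with ratios of 0.93, 0.9, 0.45 and 0.63, a mean of 0.73 ± 0.06 (SE, limma adjusted p = 3.25e-07). All 4 arrays were above the highest Dok2 ratio of any other group, 0.38. Rasgrp4 was lower, at -0.51, -0.45, -0.41 and -0.45 (mean -0.46 ± 0.04, limma adjusted p = 7.54e-08), and at 0.12 with median centring. Its second, dimmer probe gave -0.13 (adjusted p = 0.128). Kcnn4 was lower at -0.3, -0.44, -0.4 and -0.43 (mean -0.39, limma adjusted p = 0.000311), and at 0.26 with median centring. Dok1, at -0.21 (adjusted p = 0.00077, limma), and Grb2, at -0.21 (adjusted p = 0.0014, limma), were also lower whichever array was left out, and were at 0.42 and 0.61 with median centring. Clnk (-0.20), Plcg1 (-0.14) and Prkcb (-0.28) lost their calls without activated 16 h replicate 1 (adjusted p = 0.0666, 0.0787 and 0.089), and were at 0.50, 0.51 and 0.57 with median centring. Replicate 2 also ended the calls of Plcg1 (0.106) and Prkcb (0.162), and replicate 3 those of Clnk (0.0679) and Plcg1 (0.0528).

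In resting cells at 2 h, 2 genes were higher and 5 lower, which is 18.4%, against 14% of all genes tested (7.06% higher and 6.92% lower), with a median of -0.02 against 0. At 16 h, 6 were higher and 1 lower, which is 18.4%, against 21.6% (11.7% higher and 9.94% lower), with a median of 0.01, the same as all genes. With median centring 27 and 34 passed, of which 27 and 33 were higher. Agilent's processed signals gave 4 higher and 2 lower at 16 h. The split of 6 to 1 depended on the probes and the fit. The mean of the kept probes gave 1 higher and 2 lower at 16 h, and the resting 16 h arrays alone gave 1 higher and 0 lower. The other offset, filters, blocks and array weights kept more higher than lower there. At 2 h the mean of the kept probes gave 0 higher and 8 lower, and the resting 2 h arrays alone 1 and 0. The lower calls of Btk and Dok1 at 2 h and of Plcg2 at 16 h became 0.17, 0.31 and 0.42 with median centring. Lyn was higher at 2 h on all 4 arrays, at 0.28, 0.28, 0.27 and 0.22 (mean 0.26, limma adjusted p = 0.000219), but the mean of its probes gave 0.09 (adjusted p = 0.326). Clnk was lower at 2 h, at -0.58, -0.15, -0.45 and -0.13 (mean -0.33, adjusted p = 0.0016, limma), and at 0.13 with median centring. Both of these calls were kept whichever array was left out, and that of Clnk was lost in a fit to the resting 2 h arrays alone (adjusted p = 0.109). Kcnn4 was lower at 2 h, at -0.3, -0.49, -0.05 and -0.26 (mean -0.27, limma adjusted p = 0.0126). That call was lost without resting 2 h replicate 1 (adjusted p = 0.055) or 2 (0.0793), and median centring gave 0.24. At 16 h Rasgrp1 was higher on all 4 arrays, at 0.35, 0.19, 0.44 and 0.04 (mean 0.25, limma adjusted p = 0.0041), the 1 call of 7 that did not depend on a single array, although the mean of its probes gave 0.11 (adjusted p = 0.054). Nfatc3 was at 0.6, 0.04, 0.65 and 0.12 (mean 0.35, limma adjusted p = 0.0242), and lost its call without resting 16 h replicate 1 (0.27, adjusted p = 0.161) or 3 (0.25, adjusted p = 0.176).

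**Figure D4:**
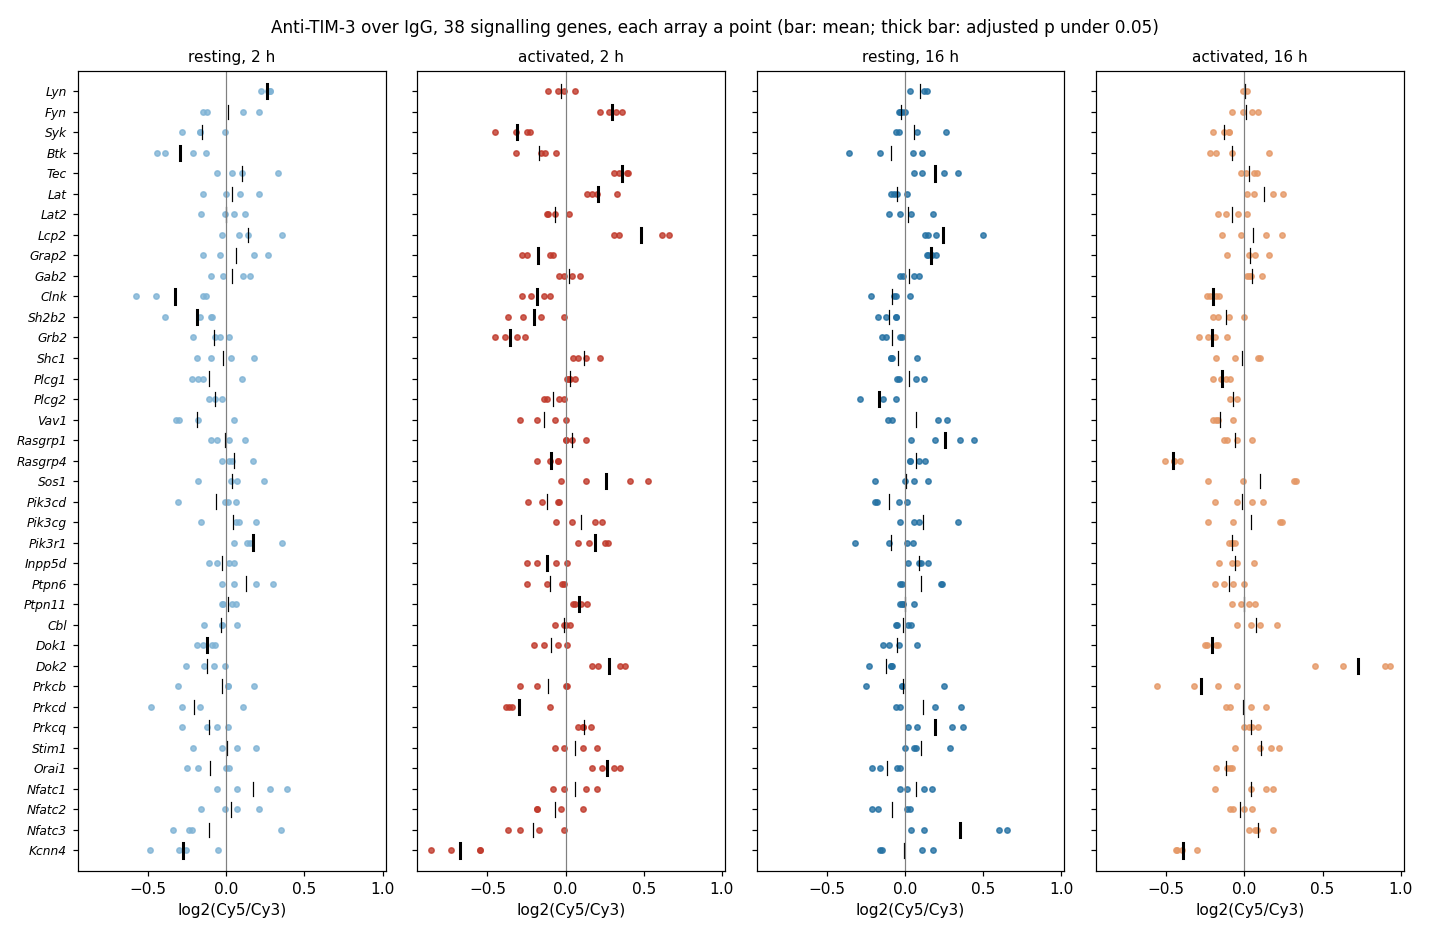
Horizontal axes: log2 ratio of Cy5 (anti-TIM-3) over Cy3 (IgG) for 38 genes in each of the 4 groups; each point is an array, each bar a mean, and a thick bar marks a limma adjusted p under 0.05. In activated cells the points of Kcnn4 at 2 h (-0.86 to -0.55) and of Dok2 at 16 h (0.45 to 0.93) lie farthest out.

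Differences in ratio between groups asked whether the antibody's values depended on antigen, and are free of a dye bias shared by all arrays. At 2 h, 3 genes had a higher ratio in activated than in resting cells and 3 a lower one, which is 15.8%, against 5.59% of all genes tested (3.6% higher and 1.99% lower). With median centring 4 passed, all of them higher, and with Agilent's processed signals 1 was higher and 3 lower. Among all genes called 64.3% were higher, 85.7% with median centring and 47.3% with Agilent's processed signals. The members' median was 0.02, against 0. Orai1 had resting ratios of 0.02, -0.25, 0 and -0.18, all below its activated ratios, and differed by 0.37 ± 0.06 (limma adjusted p = 0.00182), with 0.25 and 0.26 within the slides that held both groups. It was the 1 gene of the 6 that passed under every alternative run. Dok2 differed by 0.40 ± 0.09 (limma adjusted p = 0.0126), from resting ratios of -0.14, -0.01, -0.26 and -0.08. That call was lost without activated 2 h replicate 2 (0.37, adjusted p = 0.0523) and with Agilent's processed signals (adjusted p = 0.0513). Fyn differed by 0.28 (limma adjusted p = 0.0213), and lost the call without resting 2 h replicate 1 (adjusted p = 0.0776) or 3 (0.0671) or activated 2 h replicate 2 (0.0644) or 4 (0.0779).

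Kcnn4 had the largest negative difference at 2 h, -0.40 (limma adjusted p = 0.02). The call was lost without resting 2 h replicate 3 (-0.32, adjusted p = 0.062), activated 2 h replicate 2 (0.0668) or activated 2 h replicate 4 (0.0821). Lyn, higher in resting cells and at -0.05, -0.01, 0.06 and -0.11 in activated cells, differed by -0.29 (limma adjusted p = 0.00212), or by -0.26 with the mean of its probes (adjusted p = 0.0529). Grb2 differed by -0.28 (limma adjusted p = 0.0094), with resting ratios of 0.02, -0.04, -0.21 and -0.07. The resting and activated arrays of all 6 genes did not overlap. The 6 were picked by the test of this same difference, so this adds no support. The share of all genes without overlap was not counted.

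At 16 h, 1 gene had a higher and 3 a lower ratio in activated than in resting cells, which is 10.5%, against 8.54% of all genes tested (4.68% higher and 3.86% lower). With median centring 2 were higher and 2 lower. Among all genes called 54.8% were higher, and 84.8% with median centring. The median of the 38 was -0.09, against 0. Dok2 had resting ratios of -0.08, -0.09, -0.23 and -0.09 and differed by 0.85 ± 0.09 (limma adjusted p = 1.14e-05), with 0.80 and 0.99 within the shared slides. Rasgrp4, with resting ratios of 0.09, 0.03, 0.13 and 0.03, differed by -0.53 ± 0.05 (limma adjusted p = 3.17e-06), with -0.53 and -0.57 within slides, but its second probe gave -0.11 (adjusted p = 0.492). Both calls held under every alternative run. Kcnn4 had resting ratios of 0.18, -0.15, 0.11 and -0.16 and differed by -0.39 (limma adjusted p = 0.0172), a call lost without resting 16 h replicate 1 (adjusted p = 0.0688) or 3 (0.0609). Rasgrp1 differed by -0.31 (limma adjusted p = 0.0157), a call lost without activated 16 h replicate 1 (0.0552) or 2 (0.0503) or resting 16 h replicate 1 (0.0604) or 3 (0.0589).

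**Figure D5:**
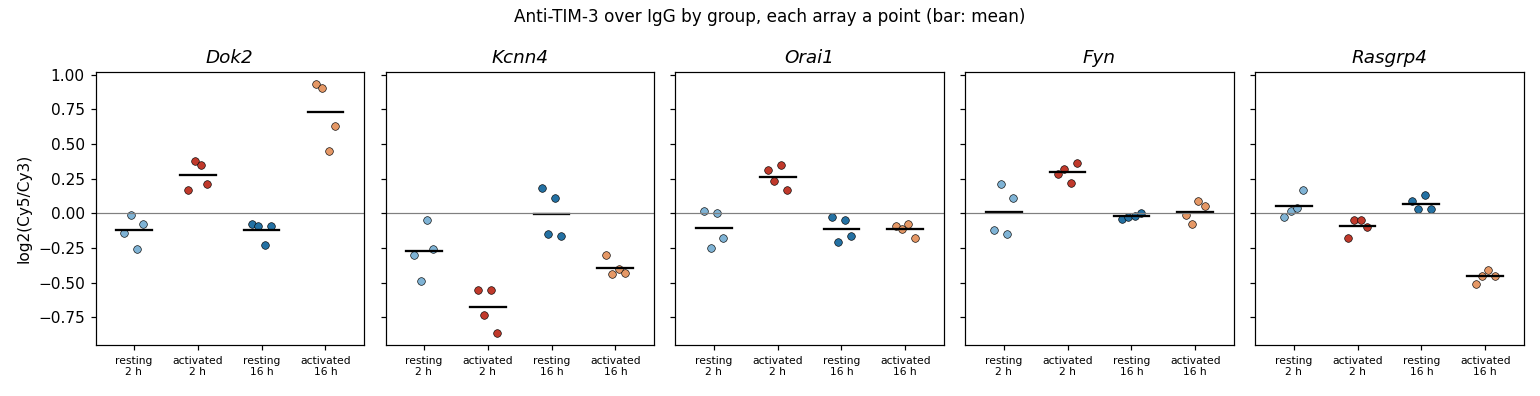
Vertical axis: log2 ratio of Cy5 (anti-TIM-3) over Cy3 (IgG) for 5 genes in the 4 groups; each point is an array and each bar a group mean. Dok2 lies above 0 in both activated groups, to a mean of 0.73 at 16 h, Kcnn4 lies below its resting arrays in both, and Rasgrp4 lies at -0.51 to -0.41 in activated 16 h cells.

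Between the 2 times the ratio differed in activated cells for 7 genes, 1 higher and 6 lower at 16 h, which is 18.4%, against 17.2% of all genes tested (9.13% higher and 8.05% lower). With median centring 10 were higher and 3 lower. The split was near even in some other fits: 5 higher and 7 lower with the replicate block, 6 and 7 with only the groups compared, and 7 and 8 with array weights. It stayed at 1 and 6 with Agilent's processed signals, and was 2 and 5 with the mean of the kept probes and 2 and 4 with the slide as a block. Among all genes called 53.2% were higher, and 79.1% with median centring. The median was -0.01, against 0.01. Among the 6 falls were Fyn (-0.28, limma adjusted p = 0.00834), Tec (-0.33, limma adjusted p = 0.00512), Orai1 (-0.38, limma adjusted p = 0.000511) and Lcp2 (-0.43, limma adjusted p = 0.0107), which had passed as higher at 2 h. At 16 h their mean ratios were 0.01, 0.03, -0.11 and 0.05. With the slide as a block Lcp2 lost its call (-0.35, adjusted p = 0.104). Rasgrp4 had a lower ratio at 16 h by 0.36 (limma adjusted p = 6.74e-05), and Pik3r1, which had passed as higher at 2 h, by 0.27, a call lost without activated 2 h replicate 2 (0.0688) or 4 (0.0694) or activated 16 h replicate 1 (0.0513) or 3 (0.0501). Dok2 had a higher ratio at 16 h by 0.45 (limma adjusted p = 0.00205), and by 0.17 within the 1 slide that held both times. In resting cells none of the 38 genes passed by limma, against 0.281% of all genes tested (0.0819% higher and 0.199% lower). An unadjusted limma p under 0.05 was reached by 11 of them, and the share of all genes at that limit was not taken. Without single arrays 0 to 9 genes passed the adjusted limit, also with no share of all genes to set beside them.

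Over all 12 comparisons, 3 of the 38 genes (7.89%, against 17.4% of all genes tested) passed in none on the probe used: Lat2, Gab2, which carries the Fyn signal to PI3K, and Nfatc1. In the 8 comparisons of ratios, 11 passed in none on the probe used (28.9%, against 42.1%). Among them were Pik3cg, Vav1 and Nfatc2, which had clear antigen effects in Cy3. In the 4 comparisons of Cy3, 6 passed in none on the probe used, without the block (15.8%, against 28.5%). They were Lyn, Lat2, Gab2, Ptpn11, Prkcb and Nfatc1. All of these but Gab2 had another kept probe that passed in Cy3. Gab2 had 1 probe and was dim, with group means of 6.61 to 6.70 (log2 Cy3 level). Lyn had a value on 2 of the activated 16 h arrays.

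The wider pathway was read from 69 further genes of the receptor, Ras, calcium and lipid branches, of which 67 were tested. After antigen 17 of them rose and 14 fell at 2 h (25.4% and 20.9%, against 15.3% and 27.6% of all genes tested). At 16 h 8 rose and 1 fell (11.9% and 1.49%, against 5.23% and 7.02% of all genes tested). For anti-TIM-3 in activated cells, 14 were higher and 12 lower at 2 h (20.9% and 17.9%, against 17.1% and 16.3% of all genes tested). There were 14 higher and 16 lower at 16 h (20.9% and 23.9%, against 16.9% and 13.2% of all genes tested). In resting cells 6 were higher and 6 lower at 2 h (8.96% and 8.96%, against 7.06% and 6.92% of all genes tested), and 7 higher and 15 lower at 16 h (10.4% and 22.4%, against 11.7% and 9.94% of all genes tested). Sphk1, the kinase that makes sphingosine 1-phosphate, rose 13.1-fold with antigen at 2 h (limma adjusted p = 1.48e-08) and had a ratio of 1.11 with anti-TIM-3 there (limma adjusted p = 1.37e-09). Ptpn22, a tyrosine phosphatase of Src-family kinases, rose 9.47-fold with antigen at 2 h (limma adjusted p = 4.19e-14). Of the receptor chains, Ms4a2, the beta chain, fell by 0.62 with antigen at 2 h. Fcer1a, the alpha chain that binds IgE, had ratios with anti-TIM-3 of 0.80 in resting 2 h cells, 1.33 in resting 16 h cells and 0.86 in activated 16 h cells, all called, and of 0.08 in activated 2 h cells (limma adjusted p = 0.686). The difference in its ratio was -0.71 for activated minus resting cells at 2 h (limma adjusted p = 0.0418) and 0.77 for 16 h minus 2 h in activated cells (limma adjusted p = 0.0113). Between the times, Pik3r2 rose by 1.23 in resting and 1.96 in activated cells and Pik3r5 fell by 1.54 and 1.62, which are regulatory subunits of PI3K.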

How the data were processed

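RNA of bone-marrow-derived mast cells was measured on 16 Agilent whole mouse genome arrays of 2 colours. The deposited scanner files hold, per the file headers, linear spot and local background intensity values for each channel, written by release 9.1.3.1 of Agilent Feature Extraction, which the submitters' processing notes give as version 9. The processed signal intensities in them were background-subtracted, detrended and dye-normalized (linear and lowess), per the file headers. The log10 ratios of Cy5 over Cy3 in the deposited value table were identical to those of the scanner files (largest difference 0), and 25.2% of them were exactly 0. No spot of the 16 arrays was saturated.

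Intensities were background-corrected with normexp (offset 50) and normalized by loess within arrays, with control spots and outliers at weight 0, in limma 3.58.1 under R 4.3.3. Each fit used all 16 arrays and 1 mean per group, and tested 17101 genes by their brightest kept probe (25420 of 41174 probes kept), with Benjamini-Hochberg adjusted p under 0.05 as the call. Cy3 levels were scaled between arrays with Aquantile, and a level is the log2 of the result. Gene symbols were taken from the files and updated through RefSeq: 22951 probes matched by accession, 6659 by current and 3109 by older symbol, and 8455 kept the file's name. The precision of each mean is limited by its 4 arrays. The 12 comparisons share arrays. Models were tested on simulated data.

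The genes and the lists were chosen with earlier results of these data known. Values on every array are given for genes that passed with a change of at least 0.5, and for others that a result turned on. Of the wider list, genes with a change of at least 1 could be named, and Ms4a2 was named outside this rule, after its values were seen.

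Replicate numbers pair the Cy3 samples: 24 of 24 pairs of arrays with the same number deviated together (correlations 0.115 to 0.679, median 0.335, against -0.106 between other numbers), and 15 of 16 arrays correlated best with their own number. The pairing comes from the numbers in the labels and this check. Alternatives were other signals, offsets, filters, probe summaries, normalizations, array weights, blocks, fits and single arrays left out. Plots were drawn with matplotlib 3.10.9.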

Additional observations from a re-analysis of the deposited data

Results flagged for a closer look

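Among 294 groups of 4 arrays tested for a sample far from the rest (Dixon's criterion), 13 were marked, where chance marks about 1 in 20. Among ratios, Shc1 (0.08) and Dok2 (-0.23) stood apart on resting 16 h replicate 3, and Prkcd (-0.1) on activated 2 h replicate 1. Among log2 Cy3 levels, activated 2 h replicate 1 stood apart for Lyn (13.19), Lat2 (14.29) and Stim1 (11.36). On activated 16 h arrays, replicate 4 stood apart for Plcg1 (12.25) and Ptpn11 (13.68), replicate 3 for Pik3cg (11.01) and Orai1 (9.63), and replicate 2 for Nfatc1 (10.53). Vav1 stood apart on resting 16 h replicate 3 (12.64) and Prkcq on resting 2 h replicate 2 (8.88).

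The other marked results are differences in ratio between groups that passed the limma test of the difference itself. Activated minus resting at 2 h they were -0.29 for Lyn, 0.28 for Fyn, -0.28 for Grb2, 0.40 for Dok2, 0.37 for Orai1 and -0.40 for Kcnn4. At 16 h they were -0.31 for Rasgrp1, -0.53 for Rasgrp4, 0.85 for Dok2 and -0.39 for Kcnn4. For 16 h minus 2 h in activated cells they were -0.28 for Fyn, -0.33 for Tec, -0.43 for Lcp2, -0.36 for Rasgrp4, -0.27 for Pik3r1, 0.45 for Dok2 and -0.38 for Orai1.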

How the results depend on the processing

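Of 136 results called in the 12 comparisons, 116 kept direction and call with Agilent's processed signals and 20 lost the call. The split of kept to lost was 127 to 9 with offset 10 and without a filter, 114 to 22 with the mean of kept probes, 116 to 20 with only the groups compared, 118 to 18 with the slide as a block and 126 to 10 with array weights. Leaving out 1 array at a time kept 811 and lost 117 of the calls it could touch. Counts of genes called ranged, in turn for resting 2 h, activated 2 h, resting 16 h and activated 16 h ratios, over 3 to 9, 10 to 15, 1 to 6 and 5 to 8. They ranged over 3 to 7 and 2 to 4 for activated minus resting ratios at 2 h and 16 h, over 0 to 9 and 6 to 8 for 16 h minus 2 h ratios in resting and activated cells, over 20 to 23 and 3 to 4 for antigen at 2 h and 16 h, and over 20 to 24 and 29 to 30 for time in resting and activated cells.

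Counts that moved by over 1.5 times were these. Apart from the replicate block for antigen at 16 h, these counts and those above stand without the share of all genes called under the same alternative. They show how far a count depends on the setting, and no more. With median centring 27, 30, 34 and 35 genes passed in the 4 groups, and 2 and 13 for 16 h minus 2 h ratios in resting and activated cells. For ratios in resting cells at 2 h, Agilent's processed signals gave 4, only the groups compared gave 1 and array weights gave 19. For ratios in resting cells at 16 h, the mean of kept probes gave 3 and only the groups compared gave 1. For 16 h minus 2 h ratios in activated cells, only the groups compared gave 13, the replicate block 12 and array weights 15, and in resting cells weights gave 1. Array weights gave 13 for activated minus resting ratios at 2 h. For antigen at 16 h, Cy3 quantile normalization, no filter and the separate-channel model each gave 3, and the replicate block and array weights each gave 10. The cause was not tested.

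Median centring turned the sign of 19 ratios called lower. In resting cells at 2 h Btk became 0.17, Clnk 0.13, Dok1 0.31 and Kcnn4 0.24, and at 16 h Plcg2 became 0.42. In activated cells at 2 h Clnk became 0.20, Grap2 0.17, Grb2 0.27, Inpp5d 0.51, Prkcd 0.22, Rasgrp4 0.28 and Syk 0.017. At 16 h Clnk became 0.50, Dok1 0.42, Grb2 0.61, Kcnn4 0.26, Plcg1 0.51, Prkcb 0.57 and Rasgrp4 0.12. By construction it leaves in place a dependence of the ratio on brightness that loess removes.

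For ratios, 12 of 24 pairs of same-numbered arrays correlated above 0.1 (-0.45 to 0.634, median 0.118, against -0.0436 between other numbers). Here 7 of 16 arrays correlated best with their own number, so any pairing of ratios was weaker than that of Cy3 levels. With the replicate block the count of called ratios went from 7 to 12 for 16 h minus 2 h in activated cells. It went from 6 to 9 for activated minus resting at 2 h, and stayed at 7 in resting 16 h cells. The replicate block kept 135 of the 136 calls, and among Cy3 comparisons it gained those named in the text and that of Prkcb for time in resting cells (-0.26, adjusted p = 0.00688). Scan time as a block was not run, since it is the same as the slide. Changes of dim genes are understated by the offset of 50.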
